A study of Homo sapiens with 9 samples.

Results

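SR proteins, heterogeneous nuclear ribonucleoproteins (hnRNPs) and other splicing regulators were measured at the RNA level in the human prostate cancer line PC3 after 48 h of co-culture with mouse osteoblasts. The members were all probe sets whose single gene symbol begins with SRSF, with HNRNP or with CLK and a digit, and those of ARGLU1, CIRBP, RBM3, RBM5, RBM15, RBM25, RBM39, TRA2A, TRA2B, PNISR, LUC7L, LUC7L3, DDX5 and DDX17. The rule chose 190 of 54613 probe sets and 49 of 19775 genes, and 169 probe sets of 47 genes passed the filter on low values. The 49 were 10 SR protein genes, 21 hnRNP genes, 4 CLK kinases, 10 other splicing factors, 2 cold-inducible RNA-binding proteins and 2 DEAD-box helicases. The rule also took in HNRNPD-DT, a noncoding RNA that starts beside HNRNPD, and HNRNPA3P1, a pseudogene. The single probe set of HNRNPA3P1 and both of SRSF12 stayed under the filter.

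The data were 9 Affymetrix U133 Plus 2.0 arrays, 1 for each RNA sample. PC3 cells were grown with primary calvarial osteoblasts of Sost knockout mice (OB SostKO, 2 arrays), with osteoblasts of wild type mice and 100 ng/ml recombinant human DKK1 (OB WT + rhDKK1, 2 arrays), with wild type osteoblasts and 100 ng/ml recombinant human SOST (OB WT + rhSOST, 3 arrays) or alone (untreated PC3, 2 arrays). The osteoblasts came from newborn pups and sat on culture inserts, apart from the PC3 cells. DKK1 and SOST are secreted Wnt antagonists. Each co-culture was compared with PC3 cells grown alone, and the co-cultures were compared with each other. A co-culture of PC3 cells and wild type osteoblasts without added protein was not among the arrays. Effects of the osteoblasts, of their lack of Sost and of the added protein therefore cannot be told apart. Arrays of a group are labelled as biological replicates. Values and changes under a co-culture are those of the PC3 cells taken from it.

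SR proteins carry RNA-recognition motifs and an arginine and serine rich domain, and they help the spliceosome define exons. Many hnRNPs bind introns or silencer elements and oppose them, and CLK kinases phosphorylate SR proteins and release them from nuclear speckles. Many of these genes also control their own dose: a conserved poison exon or retained intron diverts part of the transcripts to nonsense-mediated decay or holds them in the nucleus. Probe sets of one gene can therefore read different transcripts. On this array, the suffix _at marks a probe set unique to a sequence, _s_at one shared by several transcripts and _x_at one with probes that may cross-hybridize to other sequences. Where the probes lie in the transcripts was not analysed here, so a probe set is not called intronic or unspliced.

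The region before the transcription start is shown for SRSF5 and SRSF6, SR protein genes with probe sets that fell, and for ARGLU1, a gene with probe sets on both sides of 0. The sequences are the 250 bases before the start in RefSeq (GRCh38.p14), 5′ to 3′ on the gene's strand. They lie at chr14:69766892-69767141 (plus strand) for SRSF5, chr20:43457646-43457895 (plus strand) for SRSF6 and chr13:106568138-106568387 (minus strand) for ARGLU1. Capitals mark matches on either strand to TGACG, the core of the cAMP response element, CCAAT, the CCAAT box, GGGCGG, the GC box, or CCGGAAG, a site of ETS family factors.
SRSF5: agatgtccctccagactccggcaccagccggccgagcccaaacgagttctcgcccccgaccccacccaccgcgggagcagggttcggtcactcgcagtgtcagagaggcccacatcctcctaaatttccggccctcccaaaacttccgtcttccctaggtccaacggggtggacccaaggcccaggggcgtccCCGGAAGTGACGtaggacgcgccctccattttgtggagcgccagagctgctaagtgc
SRSF6: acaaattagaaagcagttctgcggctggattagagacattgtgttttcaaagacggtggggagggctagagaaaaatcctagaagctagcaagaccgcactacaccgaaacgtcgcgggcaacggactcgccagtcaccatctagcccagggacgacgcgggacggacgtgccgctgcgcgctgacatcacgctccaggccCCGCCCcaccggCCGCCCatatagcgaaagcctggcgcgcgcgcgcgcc
ARGLU1: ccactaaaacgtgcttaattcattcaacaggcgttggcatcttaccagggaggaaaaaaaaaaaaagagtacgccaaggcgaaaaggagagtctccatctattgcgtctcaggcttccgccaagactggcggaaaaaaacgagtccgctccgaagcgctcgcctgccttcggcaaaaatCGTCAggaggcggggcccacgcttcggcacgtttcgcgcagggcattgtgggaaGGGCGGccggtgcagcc
SRSF5 held an ETS site at -57 that ran directly into a TGACG at -50, counted from the start. SRSF6 held 2 GC boxes, both on the opposite strand, at -49 and -37, and ARGLU1 a TGACG on the opposite strand at -71 and a GC box at -17. No CCAAT was found in these 3 windows. Over the 35116 windows of 27305 genes in the table, 21.2% held TGACG, 32.0% CCAAT, 42.6% GGGCGG and 8.52% CCGGAAG. Among the 63 windows of the 45 member genes in the table, 29 (46.0%) held TGACG, 28 (44.4%) CCAAT, 39 (61.9%) GGGCGG and 7 (11.1%) CCGGAAG. The windows of one gene can overlap, some motif letters are rich in CG, and base composition was not matched, so these shares are a description. Entries for HNRNPA1, RBM39, TRA2A and HNRNPA3P1 were not among those used.

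Values are given on the log2 scale of the deposited file, where 1 unit is a fold of 2. Array medians lay between 5.45 and 5.52. KRT8, KRT18, VIM and HOXB13, markers of PC3 cells, reached the filter, with KRT18 at 13.07 to 13.47 and VIM at 12.89 to 13.20. KLK3, which PC3 cells are known to lack, read 6.71 to 7.34 by a probe set open to cross-hybridization, and CTNNA1, also known to be lost in PC3 cells, reached the filter at 5.44 to 5.90. Of 8 osteoblast marker genes with a probe set, 5 reached the filter, the brightest being COL1A1 (8.68 to 9.77) and RUNX2 (8.62 to 9.16), and SP7 and POSTN stayed under it. The mean of that osteoblast list was 5.54 to 5.58 under OB SostKO, 5.57 to 5.58 under OB WT + rhDKK1 and 5.62 to 5.73 under OB WT + rhSOST, against 5.58 to 5.74 in untreated PC3 cells. The spiked poly-A control probe sets averaged 6.65 ± 0.28 on the co-culture arrays (SD, n = 7) and 11.32 ± 0.48 on the untreated arrays (n = 2, exact two-sided permutation p = 0.0278, the smallest p these arrays allow). The 3′ minus 5′ difference of ACTB was 1.38 ± 0.33 on the co-culture arrays and 0.69 ± 0.27 on the untreated arrays (exact permutation p = 0.0278), while that of GAPDH was 0.20 ± 0.10 and 0.19 ± 0.065 (exact permutation p = 0.917). The part of these array differences in the results was not tested. In bulk RNA, fewer cells of a kind and less RNA per cell cannot be told apart. All 33970 kept probe sets were fitted together with limma, and a probe set was called at a Benjamini-Hochberg adjusted p under 0.05. The number of arrays limits the precision, and the median standard error of a log2 fold change over all kept probe sets was 0.12 for OB SostKO and 0.11 for OB WT + rhSOST against untreated PC3 cells.

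Few splicing regulator probe sets passed the test, and all those that passed under OB SostKO and OB WT + rhDKK1 fell. With OB SostKO, 0 of 169 were higher, against 0.901% of all kept probe sets, and 4 (2.37%) were lower, against 0.718%. With OB WT + rhDKK1, 0 were higher, against 1.03%, and 4 (2.37%) were lower, against 0.721%. With OB WT + rhSOST, 8 (4.73%) were higher, against 2.66%, and 4 (2.37%) were lower, against 1.32%. The 3 comparisons share the untreated arrays. These counts turn on single arrays: leaving out 1 array in turn gave 0 to 6 higher and 1 to 6 lower under OB SostKO, 0 to 5 and 1 to 6 under OB WT + rhDKK1 and 0 to 11 and 1 to 5 under OB WT + rhSOST. The highest counts came without rhSOST array 3, where the share over all kept probe sets was higher too. It was 2.78% higher and 1.56% lower under OB SostKO, and 2.64% and 1.37% under OB WT + rhDKK1. Under OB WT + rhSOST it was 3.35% and 1.54%. For the other arrays left out, that share was not computed. HNRNPA1 222040_at was called with each array left out. Over 15 settings in all, SRSF5 203380_x_at was called in 10 under OB SostKO, in 11 under OB WT + rhDKK1 and in 14 under OB WT + rhSOST, while the call of RBM15 219286_s_at under OB WT + rhSOST held in 2, those of DDX17 208718_at under OB WT + rhSOST and SRSF5 212266_s_at under OB SostKO in 3, and that of SRSF1 229246_at under OB SostKO in 4. At an unadjusted p under 0.05 limma gave 23 higher and 14 lower under OB SostKO, 24 and 14 under OB WT + rhDKK1 and 30 and 12 under OB WT + rhSOST. Those were 21.9%, 22.5% and 24.9% of members, near the 18.9%, 19.0% and 20.9% of all kept probe sets. Members stayed close to untreated cells on balance, with a median log2 fold change of 0.06 under OB SostKO, 0.06 under OB WT + rhDKK1 and 0.03 under OB WT + rhSOST, beside medians of 0.00, 0.00 and 0.01 over all kept probe sets. By class, the median under OB SostKO was 0.01 over 37 SR protein probe sets, 0.02 over 66 hnRNP probe sets, 0.11 over 47 of other splicing factors, -0.04 over 7 of the cold-inducible proteins, 0.32 over 6 of the helicases and 0.15 over 6 of the CLK kinases. All 7 co-culture arrays lay above both untreated arrays for 24 members (14.2%), against 13.1% of all kept probe sets, and below both for 14 (8.28%), against 10.6%, which is near the background.

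**Figure D1:**
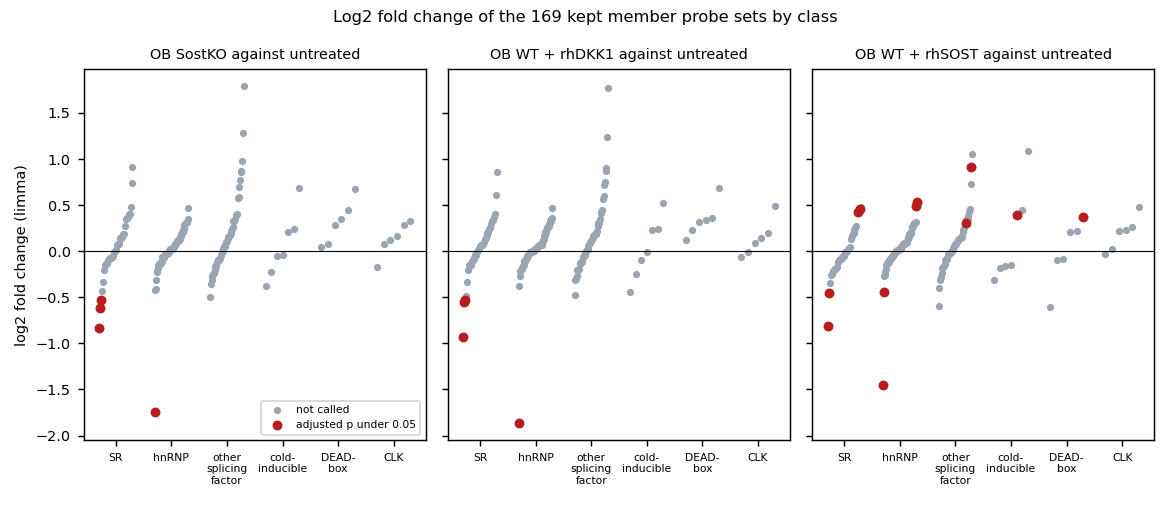
Log2 fold change of each kept member probe set (grey points, red where the adjusted p was under 0.05) by class, for each co-culture against untreated PC3 cells, sorted within a class. The called points lie below 0 under OB SostKO and OB WT + rhDKK1 (4 each), and on both sides under OB WT + rhSOST (8 above, 4 below).

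Among the SR proteins, SRSF5 fell in all co-cultures. SRSF5 is an SR protein that activates exons through purine-rich enhancers. Its probe set 203380_x_at read 11.47 and 11.31 under OB SostKO, 11.23 and 11.34 under OB WT + rhDKK1 and 11.35, 11.38 and 11.48 under OB WT + rhSOST, against 12.24 and 12.20 in untreated PC3 cells. The 7 co-culture arrays all lay below both untreated arrays. Its log2 fold change was -0.83 ± 0.09 (SE, adjusted p = 0.0111) under OB SostKO, -0.94 ± 0.09 (SE, adjusted p = 0.00686) under OB WT + rhDKK1 and -0.82 ± 0.08 (SE, adjusted p = 0.00469) under OB WT + rhSOST, which are folds of 0.562, 0.523 and 0.568. The brightest SRSF5 probe set, 212266_s_at, read 12.14 and 11.96 under OB SostKO, 12.01 and 12.09 under OB WT + rhDKK1 and 12.06, 12.10 and 12.22 under OB WT + rhSOST, against 12.64 and 12.52 in untreated PC3 cells, again without overlap. It fell by less, with a log2 fold change of -0.53 ± 0.10 (SE, adjusted p = 0.046) under OB SostKO, -0.53 ± 0.10 (SE, adjusted p = 0.0447) under OB WT + rhDKK1 and -0.46 ± 0.09 (SE, adjusted p = 0.037) under OB WT + rhSOST. The third SRSF5 probe set, 210077_s_at, did not follow, at 0.00 under OB SostKO, 0.00 under OB WT + rhDKK1 and 0.01 under OB WT + rhSOST (adjusted p at least 0.985).

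SRSF6, which binds exonic enhancers and is a substrate of DYRK kinases, fell under OB WT + rhDKK1 by its brightest probe set and not by its other one. Probe set 208804_s_at read 10.26 and 10.33 under OB SostKO, 10.16 and 10.18 under OB WT + rhDKK1 and 10.27, 10.38 and 10.50 under OB WT + rhSOST, against 10.75 and 10.70 in untreated PC3 cells. No co-culture array reached the untreated level. The log2 fold change was -0.43 ± 0.09 (SE, adjusted p = 0.0636) under OB SostKO, -0.55 ± 0.09 (SE, adjusted p = 0.0306) under OB WT + rhDKK1 and -0.34 ± 0.08 (SE, adjusted p = 0.0635) under OB WT + rhSOST, so the call was made under OB WT + rhDKK1 alone, and no test showed that the co-cultures differed. SRSF1, the first SR protein described and a proto-oncogene, gave probe sets in both directions. Its probe set 229246_at read 5.80 and 5.77 under OB SostKO, 5.92 and 5.91 under OB WT + rhDKK1 and 5.84, 5.92 and 6.12 under OB WT + rhSOST, against 6.30 and 6.50 in untreated PC3 cells, with a log2 fold change of -0.62 ± 0.11 (SE, adjusted p = 0.0432) under OB SostKO, -0.49 ± 0.11 (SE, adjusted p = 0.0733) under OB WT + rhDKK1 and -0.44 ± 0.10 (SE, adjusted p = 0.0567) under OB WT + rhSOST. Its probe set 227164_at read 8.75 and 8.71 under OB SostKO, 8.65 and 8.69 under OB WT + rhDKK1 and 8.66, 8.89 and 8.83 under OB WT + rhSOST, against 8.29 and 8.37 in untreated PC3 cells, and rose under OB WT + rhSOST, with a log2 fold change of 0.40 ± 0.09 (SE, adjusted p = 0.0811) under OB SostKO, 0.34 ± 0.09 (SE, adjusted p = 0.116) under OB WT + rhDKK1 and 0.46 ± 0.09 (SE, adjusted p = 0.0303) under OB WT + rhSOST. Both separated the 7 co-culture arrays from the untreated arrays. The brightest SRSF1 probe set, 211784_s_at, had a log2 fold change of 0.19 under OB SostKO, 0.21 under OB WT + rhDKK1 and 0.18 under OB WT + rhSOST and was not called.

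SRSF7, an SR protein with a zinc knuckle that takes part in RNA export, rose under OB WT + rhSOST by its probe set 201129_at. It read 10.57 and 10.62 under OB SostKO, 10.61 and 10.58 under OB WT + rhDKK1 and 10.74, 10.66 and 10.55 under OB WT + rhSOST, against 10.21 and 10.24 in untreated PC3 cells. All co-culture arrays lay above the untreated arrays. The log2 fold change was 0.37 ± 0.08 (SE, adjusted p = 0.0756) under OB SostKO, 0.37 ± 0.08 (SE, adjusted p = 0.0722) under OB WT + rhDKK1 and 0.42 ± 0.08 (SE, adjusted p = 0.0278) under OB WT + rhSOST. The brightest SRSF7 probe set, 214141_x_at, had a log2 fold change of 0.08 under OB SostKO, 0.08 under OB WT + rhDKK1 and 0.03 under OB WT + rhSOST. Of the other SR protein genes, SRSF3, SRSF4, SRSF8, SRSF10 and SRSF11 had no called probe set. The nearest was SRSF10 225348_at, named after its values were seen. It had a log2 fold change of 0.35 ± 0.12 (SE, adjusted p = 0.163) under OB SostKO, 0.26 ± 0.12 (SE, adjusted p = 0.278) under OB WT + rhDKK1 and 0.42 ± 0.11 (SE, adjusted p = 0.0704) under OB WT + rhSOST.

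**Figure D2:**
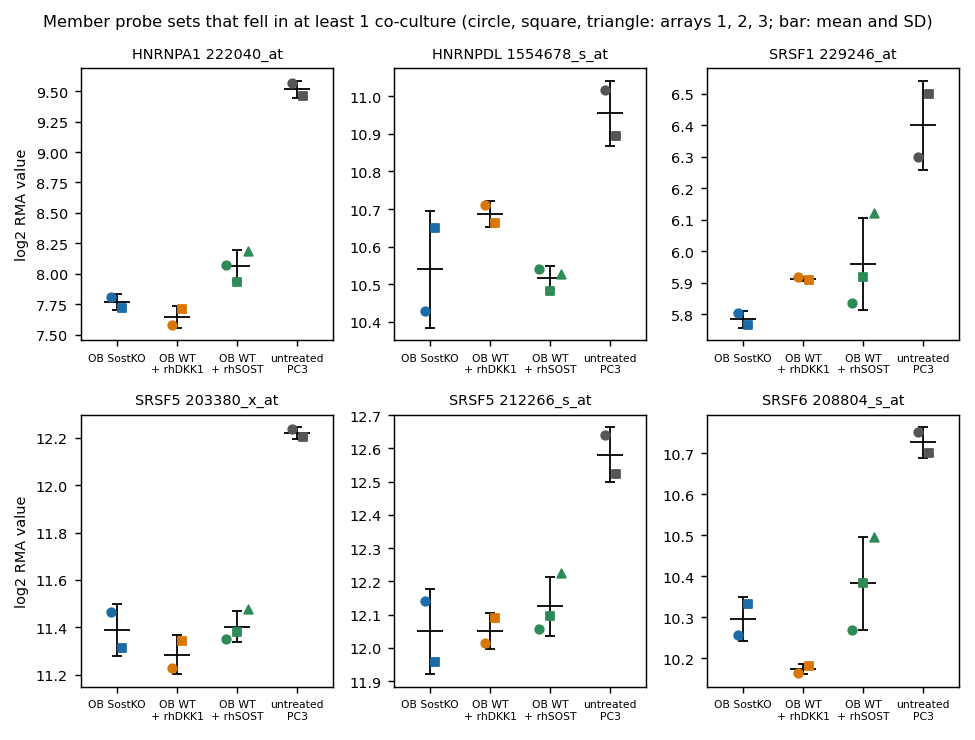
Log2 values of the 6 member probe sets that fell in at least 1 co-culture (vertical axes, ranges differ), by group, with 1 point per array and the mean ± SD. In every panel both untreated arrays lie above all 7 co-culture arrays.

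The largest fall of any member was in HNRNPA1, a core hnRNP that represses exons and binds many intronic silencers. Its probe set 222040_at read 7.81 and 7.72 under OB SostKO, 7.58 and 7.71 under OB WT + rhDKK1 and 8.08, 7.93 and 8.19 under OB WT + rhSOST, against 9.56 and 9.46 in untreated PC3 cells. The 7 co-culture arrays were all more than 1 below both untreated arrays. The log2 fold change was -1.75 ± 0.10 (SE, adjusted p = 0.00169) under OB SostKO, -1.87 ± 0.10 (SE, adjusted p = 0.00109) under OB WT + rhDKK1 and -1.45 ± 0.10 (SE, adjusted p = 0.000773) under OB WT + rhSOST, which are folds of 0.298, 0.274 and 0.367. The other probe sets of HNRNPA1 did not follow. The brightest, 214280_x_at, had a log2 fold change of -0.06 under OB SostKO, -0.11 under OB WT + rhDKK1 and -0.01 under OB WT + rhSOST, and 221919_at one of -0.15 under OB SostKO, -0.01 under OB WT + rhDKK1 and 0.30 under OB WT + rhSOST. A further 2 probe sets that name HNRNPA1 beside its pseudogenes had a log2 fold change of 0.05 and 0.04 under OB SostKO, 0.04 and 0.04 under OB WT + rhDKK1 and 0.02 and 0.02 under OB WT + rhSOST. HNRNPA1 has many near-identical pseudogene copies, so which RNA 222040_at reads is uncertain.

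HNRNPDL, a paralog of HNRNPD that regulates its own transcripts by splicing, had 1 called probe set. 1554678_s_at read 10.43 and 10.65 under OB SostKO, 10.71 and 10.66 under OB WT + rhDKK1 and 10.54, 10.48 and 10.53 under OB WT + rhSOST, against 11.02 and 10.89 in untreated PC3 cells, and no co-culture array overlapped with the untreated arrays. The log2 fold change came to -0.42 ± 0.09 (SE, adjusted p = 0.0741) under OB SostKO, -0.27 ± 0.09 (SE, adjusted p = 0.184) under OB WT + rhDKK1 and -0.44 ± 0.09 (SE, adjusted p = 0.0357) under OB WT + rhSOST. The other 5 kept HNRNPDL probe sets lay between -0.07 and 0.12 under OB SostKO and between -0.19 and 0.20 under OB WT + rhSOST. HNRNPLL, known for regulating CD45 exons in T cells, rose under OB WT + rhSOST by 236104_at. It read 7.11 and 7.12 under OB SostKO, 7.17 and 7.15 under OB WT + rhDKK1 and 7.30, 7.33 and 7.24 under OB WT + rhSOST, against 6.74 and 6.85 in untreated PC3 cells. The 3 rhSOST arrays lay above the other co-culture arrays, and these above the untreated arrays, by a log2 fold change of 0.32 ± 0.08 (SE, adjusted p = 0.0858) under OB SostKO, 0.36 ± 0.08 (SE, adjusted p = 0.0616) under OB WT + rhDKK1 and 0.49 ± 0.07 (SE, adjusted p = 0.0132) under OB WT + rhSOST. The brightest HNRNPLL probe set, 225386_s_at, had a log2 fold change of -0.13 under OB SostKO, -0.08 under OB WT + rhDKK1 and -0.12 under OB WT + rhSOST. HNRNPR, a paralog of SYNCRIP, rose under OB WT + rhSOST by 232004_at, which read 6.81 and 7.13 under OB SostKO, 7.17 and 7.12 under OB WT + rhDKK1 and 7.17, 7.27 and 7.17 under OB WT + rhSOST, against 6.65 and 6.69 in untreated PC3 cells. On the log2 scale its fold change was 0.29 ± 0.11 (SE, adjusted p = 0.202) under OB SostKO, 0.47 ± 0.11 (SE, adjusted p = 0.0744) under OB WT + rhDKK1 and 0.53 ± 0.10 (SE, adjusted p = 0.0303) under OB WT + rhSOST, while the brightest HNRNPR probe set, 208766_s_at, had a log2 fold change of -0.02 under OB SostKO, 0.04 under OB WT + rhDKK1 and 0.08 under OB WT + rhSOST. Several hnRNPs of high signal, picked after their values were seen, had no called probe set. The brightest probe set of HNRNPA2B1 had a log2 fold change of -0.06 under OB SostKO, 0.02 under OB WT + rhDKK1 and 0.02 under OB WT + rhSOST, that of HNRNPC one of -0.10 under OB SostKO, -0.09 under OB WT + rhDKK1 and -0.07 under OB WT + rhSOST, that of HNRNPK one of -0.03 under OB SostKO, 0.00 under OB WT + rhDKK1 and -0.05 under OB WT + rhSOST and that of HNRNPAB one of -0.02 under OB SostKO, 0.02 under OB WT + rhDKK1 and 0.01 under OB WT + rhSOST.

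RBM15, a partner of the m6A methyltransferase complex, rose under OB WT + rhSOST by 2 of its 6 kept probe sets. The 6 ran from -0.32 to 0.92 there, and the others were not called. The brightest, 219286_s_at, read 10.40 and 10.36 under OB SostKO, 10.30 and 10.34 under OB WT + rhDKK1 and 10.39, 10.47 and 10.48 under OB WT + rhSOST, against 10.15 and 10.13 in untreated PC3 cells. Its log2 fold change was 0.24 ± 0.07 (SE, adjusted p = 0.148) under OB SostKO, 0.18 ± 0.07 (SE, adjusted p = 0.246) under OB WT + rhDKK1 and 0.31 ± 0.07 (SE, adjusted p = 0.0495) under OB WT + rhSOST. Probe set 228455_at read 5.83 and 5.95 under OB SostKO, 5.92 and 5.65 under OB WT + rhDKK1 and 5.88, 6.01 and 6.44 under OB WT + rhSOST, against 4.97 and 5.41 in untreated PC3 cells, with a log2 fold change of 0.70 ± 0.21 (SE, adjusted p = 0.136) under OB SostKO, 0.60 ± 0.21 (SE, adjusted p = 0.181) under OB WT + rhDKK1 and 0.92 ± 0.19 (SE, adjusted p = 0.0416) under OB WT + rhSOST. Both separated the co-culture arrays from the untreated arrays, and rhSOST array 3 was the highest in each. On both untreated arrays 228455_at lay below the array median. RBM3, an RNA-binding protein induced by mild cold, rose under OB WT + rhSOST by 222026_at, which read 8.74 and 8.83 under OB SostKO, 8.80 and 8.74 under OB WT + rhDKK1 and 8.93, 8.91 and 8.95 under OB WT + rhSOST, against 8.48 and 8.60 in untreated PC3 cells, with a log2 fold change of 0.24 ± 0.08 (SE, adjusted p = 0.166) under OB SostKO, 0.23 ± 0.08 (SE, adjusted p = 0.184) under OB WT + rhDKK1 and 0.39 ± 0.07 (SE, adjusted p = 0.0305) under OB WT + rhSOST. Its brightest probe set, 208319_s_at, pointed the other way, at -0.22 ± 0.09 (SE, adjusted p = 0.233) under OB SostKO, -0.25 ± 0.09 (SE, adjusted p = 0.19) under OB WT + rhDKK1 and -0.31 ± 0.08 (SE, adjusted p = 0.0758) under OB WT + rhSOST. DDX17, an RNA helicase and transcriptional coregulator that acts with DDX5, rose under OB WT + rhSOST by its brightest probe set, 208718_at. It read 11.78 and 11.76 under OB SostKO, 11.75 and 11.90 under OB WT + rhDKK1 and 11.80, 11.89 and 11.89 under OB WT + rhSOST, against 11.52 and 11.46 in untreated PC3 cells, and its log2 fold change was 0.28 ± 0.08 (SE, adjusted p = 0.132) under OB SostKO, 0.34 ± 0.08 (SE, adjusted p = 0.085) under OB WT + rhDKK1 and 0.37 ± 0.08 (SE, adjusted p = 0.038) under OB WT + rhSOST. The other 4 kept probe sets of DDX17, at log2 fold changes of -0.60, -0.08, -0.09 and 0.20 under OB WT + rhSOST, were not called.

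**Figure D3:**
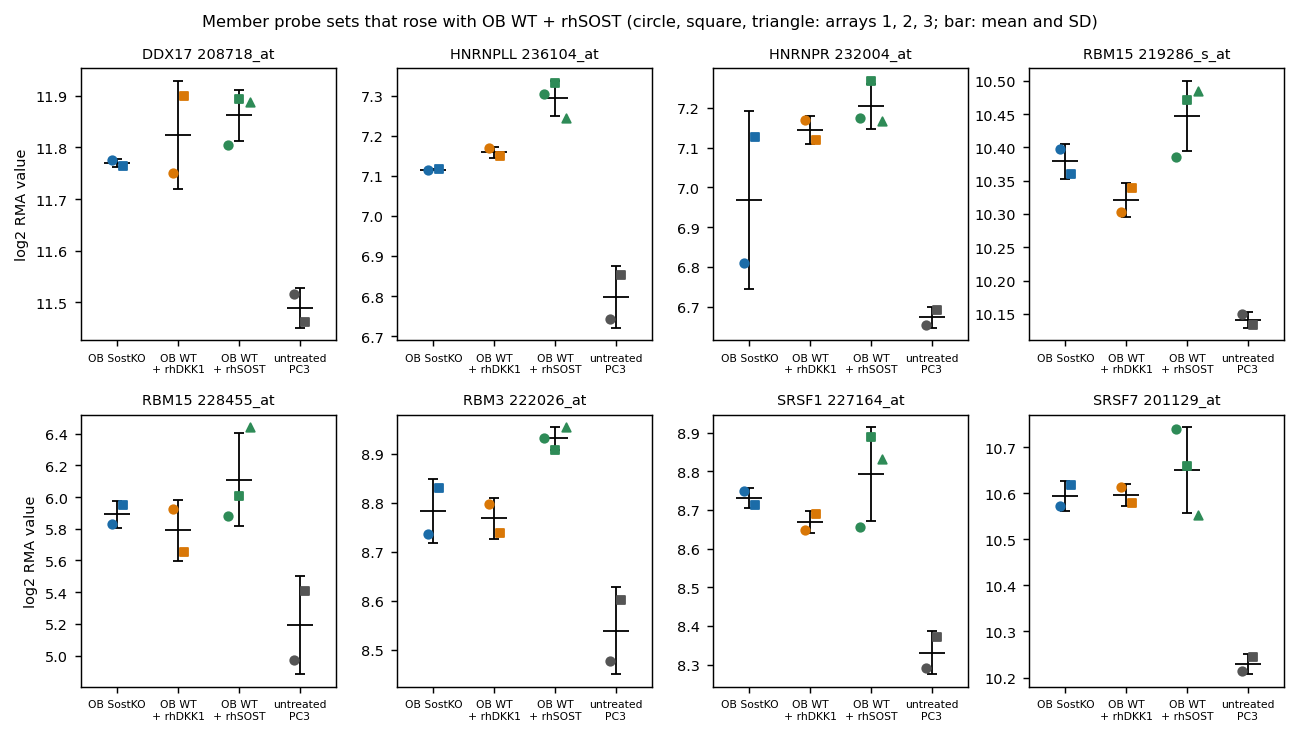
Log2 values of the 8 member probe sets that rose under OB WT + rhSOST (vertical axes, ranges differ), by group, with 1 point per array and the mean ± SD. In every panel both untreated arrays lie below all 7 co-culture arrays, and the OB SostKO and OB WT + rhDKK1 arrays, which were not called, lie on the same side.

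DDX5, the partner helicase, had 1 probe set with a single symbol, 225886_at, which had a log2 fold change of 0.05 under OB SostKO, 0.12 under OB WT + rhDKK1 and 0.22 under OB WT + rhSOST and was not called. CIRBP, the other cold-inducible protein, was not called by any of 5 probe sets. Its 225191_at came nearest, reading 6.37 and 6.45 under OB SostKO, 6.39 and 6.11 under OB WT + rhDKK1 and 6.64, 6.52 and 7.29 under OB WT + rhSOST, against 5.996 and 5.46 in untreated PC3 cells. The log2 fold change was 0.68 ± 0.27 (SE, adjusted p = 0.222) under OB SostKO, 0.53 ± 0.27 (SE, adjusted p = 0.328) under OB WT + rhDKK1 and 1.09 ± 0.24 (SE, adjusted p = 0.0505) under OB WT + rhSOST, while the brightest CIRBP probe set, 200810_s_at, had a log2 fold change of -0.05 under OB SostKO, -0.09 under OB WT + rhDKK1 and -0.16 under OB WT + rhSOST. None of the 4 CLK kinases had a called probe set. CLK4 probe set 228751_at had a log2 fold change of 0.33 ± 0.14 (SE, adjusted p = 0.268) under OB SostKO, 0.50 ± 0.14 (SE, adjusted p = 0.123) under OB WT + rhDKK1 and 0.48 ± 0.13 (SE, adjusted p = 0.0887) under OB WT + rhSOST, and CLK1 probe set 214683_s_at one of 0.17 under OB SostKO, 0.20 under OB WT + rhDKK1 and 0.23 under OB WT + rhSOST.

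The remaining listed genes had no called probe set. TRA2A and TRA2B are SR-like activators of exons, LUC7L and LUC7L3 belong to a family of U1 snRNP partners, RBM39 is a relative of U2AF2, and RBM5 regulates splicing of apoptosis genes. The brightest probe set of TRA2A had a log2 fold change of -0.35 under OB SostKO, -0.27 under OB WT + rhDKK1 and -0.24 under OB WT + rhSOST, and its 4 kept probe sets ran between -0.35 and 0.41 under OB SostKO. That of TRA2B had a log2 fold change of -0.07 under OB SostKO, -0.05 under OB WT + rhDKK1 and -0.01 under OB WT + rhSOST, with a range of -0.16 to 0.18 over 4 probe sets. LUC7L had the narrowest range of these, 0.04 to 0.16 over 4 probe sets, with 0.10 under OB SostKO, 0.08 under OB WT + rhDKK1 and 0.13 under OB WT + rhSOST for the brightest. The brightest of LUC7L3 had a log2 fold change of 0.11 under OB SostKO, 0.06 under OB WT + rhDKK1 and 0.15 under OB WT + rhSOST, that of RBM39 one of -0.08 under OB SostKO, -0.11 under OB WT + rhDKK1 and -0.04 under OB WT + rhSOST and that of RBM5 one of -0.25 under OB SostKO, -0.20 under OB WT + rhDKK1 and -0.07 under OB WT + rhSOST. For RBM25, which binds exonic enhancers near weak 5′ splice sites, the brightest probe set had a log2 fold change of 0.03 under OB SostKO, -0.02 under OB WT + rhDKK1 and 0.10 under OB WT + rhSOST, and for PNISR, an SR-like partner of pinin, it had one of 0.39 under OB SostKO, 0.35 under OB WT + rhDKK1 and -0.16 under OB WT + rhSOST.

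Since probe sets of one gene disagreed, each was set against the brightest kept probe set of its gene, and the difference was tested with limma over 13381 such differences. Of 122 member differences in 41 genes, 1 (0.820%) was called under OB SostKO, against 0.00747% of all differences, 1 (0.820%) under OB WT + rhDKK1, against 0.0149%, and 5 (4.10%) under OB WT + rhSOST, against 1.05%. Over all 13381 differences, 1 was called under OB SostKO and 2 under OB WT + rhDKK1, the member included. The shares in those comparisons therefore rest on single probe sets and show no excess among members. The call under OB SostKO and OB WT + rhDKK1 was HNRNPA1 222040_at, which fell relative to 214280_x_at by 1.69 ± 0.11 (SE, adjusted p = 0.00735) under OB SostKO and fell by 1.76 ± 0.11 (adjusted p = 0.0053) under OB WT + rhDKK1. With OB WT + rhSOST it fell by 1.43 ± 0.10 (adjusted p = 0.0124). The other calls under OB WT + rhSOST were 3 rises relative to the brightest probe set, of RBM3 222026_at by 0.70 ± 0.10 (adjusted p = 0.0349), HNRNPLL 236104_at by 0.61 ± 0.09 (adjusted p = 0.0349) and CIRBP 228519_x_at by 0.61 ± 0.10 (adjusted p = 0.0491), and a fall of RBM15 229291_at by 0.62 ± 0.09 (adjusted p = 0.0353). In HNRNPA1, RBM3 and HNRNPLL the brightest probe set was not called and the other was, so the result for the gene differed by probe set.

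The widest range over the probe sets of one gene was in ARGLU1 under OB SostKO (2.29) and under OB WT + rhDKK1 (2.25), and in HNRNPA1 (1.75) ahead of ARGLU1 (1.65) under OB WT + rhSOST. ARGLU1 is a coregulator that binds U2AF2 and Mediator. Its brightest probe set, 218067_s_at, read 9.82 and 9.96 under OB SostKO, 9.92 and 9.90 under OB WT + rhDKK1 and 9.92, 10.08 and 10.32 under OB WT + rhSOST, against 10.43 and 10.36 in untreated PC3 cells. All co-culture arrays lay below the untreated arrays, by a log2 fold change of -0.50 ± 0.13 (SE, adjusted p = 0.0975) under OB SostKO, -0.48 ± 0.13 (SE, adjusted p = 0.104) under OB WT + rhDKK1 and -0.28 ± 0.12 (SE, adjusted p = 0.221) under OB WT + rhSOST. Its probe set 228477_at read 8.89 and 8.66 under OB SostKO, 8.66 and 8.84 under OB WT + rhDKK1 and 9.04, 8.66 and 6.40 under OB WT + rhSOST, against 7.46 and 6.51 in untreated PC3 cells. Here 6 co-culture arrays lay above both untreated arrays, and rhSOST array 3 lay below both. The log2 fold change was 1.79 ± 0.76 (SE, adjusted p = 0.256) under OB SostKO, 1.77 ± 0.76 (SE, adjusted p = 0.259) under OB WT + rhDKK1 and 1.05 ± 0.69 (SE, adjusted p = 0.439) under OB WT + rhSOST. The other ARGLU1 probe sets, 222508_s_at and 227448_at, had a log2 fold change of -0.04 and -0.10 under OB SostKO. In SRSF6, the 2 probe sets also pointed in opposite directions. Probe set 206108_s_at read 9.48 and 9.83 under OB SostKO, 9.72 and 9.48 under OB WT + rhDKK1 and 9.45, 9.83 and 7.69 under OB WT + rhSOST, against 8.78 and 8.70 in untreated PC3 cells, with a log2 fold change of 0.91 ± 0.58 (SE, adjusted p = 0.438) under OB SostKO, 0.86 ± 0.58 (SE, adjusted p = 0.46) under OB WT + rhDKK1 and 0.25 ± 0.53 (SE, adjusted p = 0.846) under OB WT + rhSOST, beside the fall of 208804_s_at. Again rhSOST array 3 lay below both untreated arrays and the other 6 co-culture arrays above them.

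In RBM25, 7 probe sets ran from 0.01 to 1.29 under OB SostKO. Probe set 1557081_at read 9.44 and 9.34 under OB SostKO, 9.34 and 9.33 under OB WT + rhDKK1 and 9.28, 9.27 and 7.94 under OB WT + rhSOST, against 7.60 and 8.60 in untreated PC3 cells. In log2 units the change was 1.29 ± 0.46 (SE, adjusted p = 0.194) under OB SostKO, 1.24 ± 0.46 (SE, adjusted p = 0.206) under OB WT + rhDKK1 and 0.73 ± 0.42 (SE, adjusted p = 0.374) under OB WT + rhSOST. RBM25 212027_at had a log2 fold change of 0.88 under OB SostKO, 0.90 under OB WT + rhDKK1 and 0.43 under OB WT + rhSOST, while 212031_at had a log2 fold change of 0.01 under OB SostKO, 0.00 under OB WT + rhDKK1 and -0.02 under OB WT + rhSOST. In PNISR, 5 probe sets ran from -0.31 (212176_at) to 0.98 (212177_at) under OB SostKO, and 212177_at read 7.35 and 7.60 under OB SostKO, 7.47 and 7.27 under OB WT + rhDKK1 and 7.53, 7.31 and 6.03 under OB WT + rhSOST, against 6.29 and 6.70 in untreated PC3 cells. In LUC7L3, 6 probe sets ran from -0.20 (241792_x_at) to 0.86 (208835_s_at). In RBM5, 201394_s_at had a log2 fold change of -0.27 and 209936_at one of 0.77 under OB SostKO. In CIRBP, the range ran from -0.37 (230142_s_at) to 0.68 (225191_at). None of these values was called with all 9 arrays. ARGLU1 and RBM25, and likewise CIRBP, RBM15 and DDX17, stand in lists of changed genes that the study took from these arrays, so their values here are not independent evidence of a direction.

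**Figure D4:**
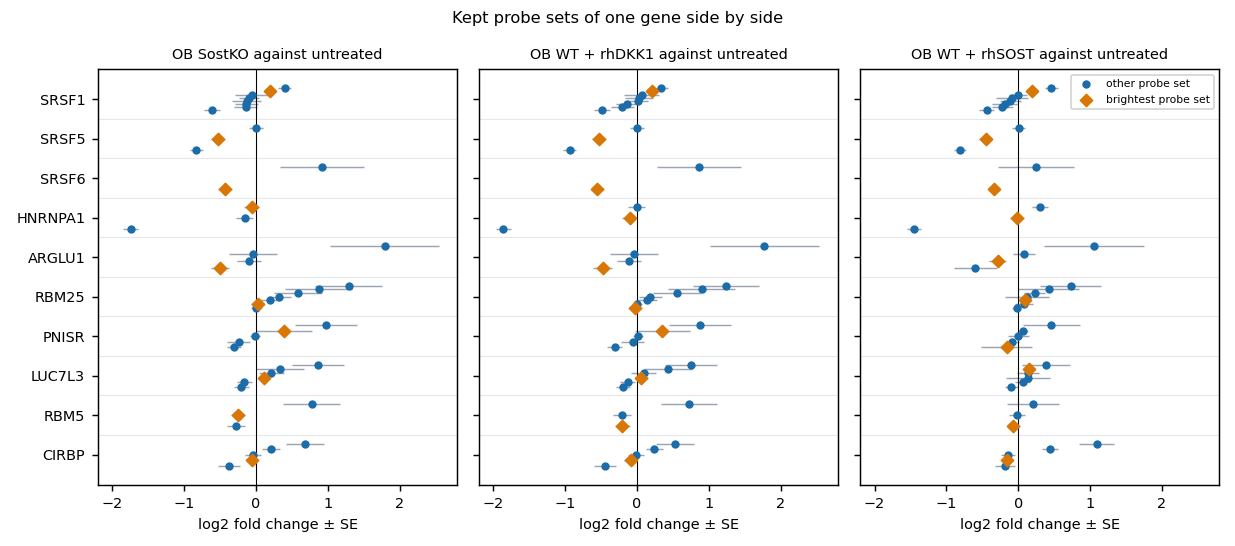
Log2 fold change ± SE of each kept probe set of 10 member genes, for each co-culture against untreated PC3 cells, with the brightest probe set as an orange diamond. ARGLU1 and SRSF6 have probe sets on both sides of 0, as do SRSF1, PNISR, LUC7L3, RBM5 and CIRBP. In HNRNPA1, 1 probe set lies at -1.45 or below while its others lie between -0.15 and 0.30.

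Array 3 of OB WT + rhSOST stood apart at many of these probe sets. It was at least 1 below the mean of rhSOST arrays 1 and 2 at 11 of 169 members (6.51%), against 2.24% of all kept probe sets. The 11 probe sets belong to 8 genes: ARGLU1 228477_at, SRSF6 206108_s_at, DDX17 213998_s_at and 230180_at, RBM25 212027_at and 1557081_at, PNISR 212177_at and 225507_at, RBM39 227223_at, LUC7L3 208835_s_at and TRA2B 210180_s_at. They were picked for this difference, which ran from -2.45 to -1.06. Their log2 fold change under OB SostKO, where array 3 has no part in the mean, ran from 0.18 to 1.79 with a median of 0.86, and under OB WT + rhDKK1 from 0.27 to 1.77 with a median of 0.75. The other 26 kept probe sets of the same 8 genes had a median of -0.03 and -0.01 in these comparisons. On rhSOST array 3 the other 26 differed from arrays 1 and 2 by a median of 0.03. The untreated arrays, which these fold changes share, also differed at several of the 11. Untreated array 2 minus array 1 was 0.99 at RBM25 1557081_at, 0.78 at DDX17 213998_s_at and -0.96 at ARGLU1 228477_at. It was 0.21 at TRA2B 210180_s_at and -0.08 at SRSF6 206108_s_at. The SD of that difference was 0.23 over all kept probe sets. Array 3 had the highest 3′ minus 5′ difference of GAPDH of all arrays, 0.42, against 0.12 to 0.24 on the others, while its 3′ minus 5′ difference of ACTB was 1.32, against 2.06 and 1.44 on rhSOST arrays 1 and 2, and the part of this in the result was not tested.

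**Figure D5:**
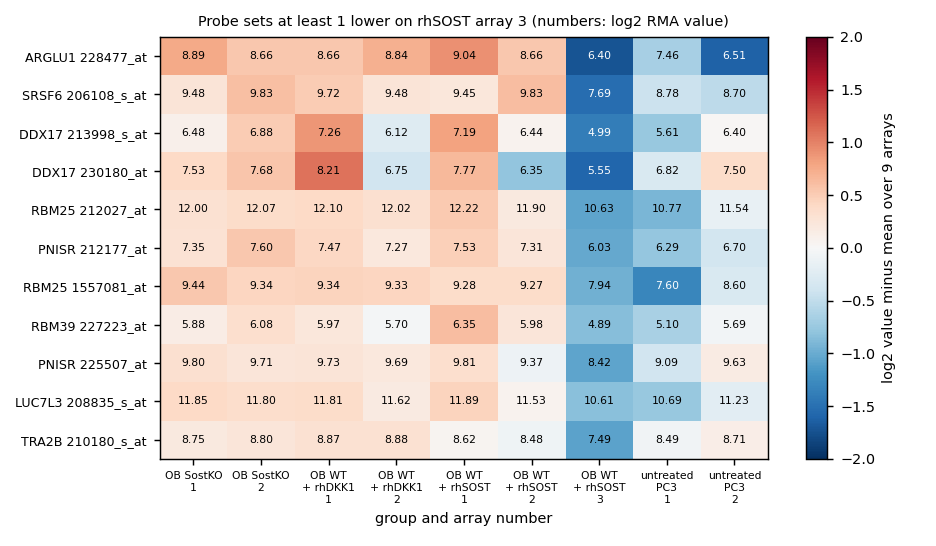
Log2 value (numbers) of the 11 member probe sets that were at least 1 lower on rhSOST array 3 than the mean of arrays 1 and 2, per array, coloured by the difference from the mean over 9 arrays. Array 3 of OB WT + rhSOST is the lowest of the co-culture arrays in every row, and lies below the higher of the untreated arrays.

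Without rhSOST array 3, the same fit called 6 members higher (3.55%, against 2.78% of all kept probe sets) and 6 lower (3.55%, against 1.56%) under OB SostKO, 5 higher (2.96%, against 2.64%) and 6 lower (3.55%, against 1.37%) under OB WT + rhDKK1, and 11 higher (6.51%, against 3.35%) and 5 lower (2.96%, against 1.54%) under OB WT + rhSOST. Leaving out each array in turn was planned, and this array was singled out after seeing the data. The fold changes of OB SostKO and OB WT + rhDKK1 are the same in both fits, and only the shared estimate of the spread differs. ARGLU1 228477_at was then 1.79 ± 0.29 (SE, adjusted p = 0.0222) under OB SostKO, 1.77 ± 0.29 (SE, adjusted p = 0.0228) under OB WT + rhDKK1 and 1.87 ± 0.29 (SE, adjusted p = 0.0183) under OB WT + rhSOST. ARGLU1 218067_s_at was -0.50 ± 0.09 (SE, adjusted p = 0.0333) and -0.48 ± 0.09 (SE, adjusted p = 0.0393) in the comparisons under OB SostKO and OB WT + rhDKK1. Rises of SRSF6 206108_s_at, PNISR 212177_at, SRSF11 213742_at and SRSF7 201129_at were called in all 3 comparisons, and one of RBM25 1557081_at under OB SostKO. Falls of HNRNPA1 222040_at, SRSF5 203380_x_at and 212266_s_at, SRSF6 208804_s_at and SRSF1 229246_at were called in all 3. The calls of HNRNPDL 1554678_s_at, DDX17 208718_at and RBM15 219286_s_at under OB WT + rhSOST were lost, and CIRBP 225191_at was called there. Within genes, 4 (3.28%, against 2.72%), 4 (3.28%, against 2.05%) and 11 (9.02%, against 2.97%) differences were called under these co-cultures in the same order. They include the difference between the ARGLU1 probe sets, 2.29 ± 0.30 (adjusted p = 0.019) under OB SostKO, and that between the SRSF6 probe sets, 1.34 ± 0.15 (adjusted p = 0.0143).

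No member was called between co-cultures. Of 169 members, 0 were called by limma between OB SostKO and OB WT + rhSOST (0% of all kept probe sets), 0 between OB WT + rhDKK1 and OB WT + rhSOST (0%) and 0 between OB SostKO and OB WT + rhDKK1 (0%). At an unadjusted p under 0.05 limma gave 9, 9 and 0 members, which were 5.33%, 5.33% and 0%, against 3.43%, 2.33% and 0.854% of all kept probe sets. With the smallest p for OB SostKO minus OB WT + rhSOST, HNRNPA1 221919_at differed by -0.46 (95% interval -0.71 to -0.20, adjusted p = 0.843), HNRNPD 213359_at by -0.52 (95% interval -0.86 to -0.19, adjusted p = 0.843) and TRA2A 213575_at by 0.45 (95% interval 0.14 to 0.75, adjusted p = 0.843). For OB WT + rhDKK1 minus OB WT + rhSOST, HNRNPA1 222040_at differed by -0.42 (95% interval -0.64 to -0.20, adjusted p = 1) and HNRNPD 213359_at by -0.48 (95% interval -0.82 to -0.15, adjusted p = 1). HNRNPD 213359_at read 7.12 and 7.03 under OB SostKO, 7.05 and 7.17 under OB WT + rhDKK1 and 7.41, 7.51 and 7.87 under OB WT + rhSOST, against 7.35 and 7.64 in untreated PC3 cells, so the rhSOST arrays lay above the other co-culture arrays but not apart from the untreated ones, with array 3 above both and arrays 1 and 2 between them. For OB SostKO minus OB WT + rhDKK1, CLK3 238072_at differed by 0.34 (95% interval -0.01 to 0.70, adjusted p = 1), HNRNPUL2 222264_at by -0.16 (95% interval -0.36 to 0.03, adjusted p = 1) and RBM15 229291_at by 0.18 (95% interval -0.05 to 0.41, adjusted p = 1). With 2 or 3 arrays a group these intervals leave room for differences of that size, so the co-cultures are not shown to act alike.

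Other genes of the splicing machinery were read from 4 lists. Of 82 probe sets of the core spliceosome (44 genes), 0 were called under OB SostKO and OB WT + rhDKK1, and 1 was higher under OB WT + rhSOST, U2AF1 231904_at at 0.57 ± 0.12 (SE, adjusted p = 0.0438). Of 91 probe sets of other splicing regulators (27 genes), 2 were lower under OB SostKO, 1 was higher under OB WT + rhDKK1, and 2 were higher and 4 lower under OB WT + rhSOST. Of 61 probe sets of SR protein kinases and speckle proteins (16 genes), 1 was higher and 1 lower under OB SostKO and under OB WT + rhDKK1, and 4 were higher and 2 lower under OB WT + rhSOST. Of 16 probe sets of nonsense-mediated decay factors (8 genes), none was called in any of these comparisons. Over all kept probe sets, 0.901% were higher and 0.718% lower under OB SostKO, and 1.03% and 0.721% under OB WT + rhDKK1. Under OB WT + rhSOST these shares were 2.66% and 1.32%. The medians under OB SostKO were 0.05, 0.03, 0.16 and 0.04 for these lists, beside 0.00 over all kept probe sets. Low values on rhSOST array 3 were not particular to the members. On rhSOST arrays 1, 2 and 3, SF3B1 214305_s_at read 10.11, 9.21 and 7.45, and BCLAF1 201101_s_at 10.75, 9.80 and 8.24. SF3B1 211185_s_at read 12.21, 12.27 and 12.25. These were picked after their values were seen.

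SON, the large scaffold protein of nuclear speckles, fell by 213538_at, which read 7.47 and 7.76 under OB SostKO, 7.83 and 7.80 under OB WT + rhDKK1 and 7.81, 7.65 and 7.97 under OB WT + rhSOST, against 8.47 and 8.50 in untreated PC3 cells. The fitted change in log2 was -0.87 ± 0.13 (SE, adjusted p = 0.0245) under OB SostKO, -0.67 ± 0.13 (SE, adjusted p = 0.047) under OB WT + rhDKK1 and -0.68 ± 0.12 (SE, adjusted p = 0.0238) under OB WT + rhSOST. The other kept probe sets of SON were not called and had log2 fold changes of 0.05 to 0.84 under OB SostKO. PNN, pinin of the exon junction complex and of desmosomes, rose by 212036_s_at, which read 11.68 and 11.65 under OB SostKO, 11.70 and 11.72 under OB WT + rhDKK1 and 11.77, 11.65 and 11.65 under OB WT + rhSOST, against 11.21 and 11.22 in untreated PC3 cells. Its change came to a log2 of 0.46 ± 0.08 (SE, adjusted p = 0.0363) under OB SostKO, 0.50 ± 0.08 (SE, adjusted p = 0.0249) under OB WT + rhDKK1 and 0.48 ± 0.07 (SE, adjusted p = 0.0147) under OB WT + rhSOST. Neither overlapped with the untreated arrays. PNN 1567214_a_at was also called higher under OB WT + rhSOST, at 0.38 ± 0.07 (SE, adjusted p = 0.0357). The other kept probe sets of PNN were not called. QKI, which binds introns and directs circular RNA formation, fell under OB SostKO and OB WT + rhSOST by 1555154_a_at, at -0.85 ± 0.16 (SE, adjusted p = 0.0445) under OB SostKO, -0.64 ± 0.16 (SE, adjusted p = 0.0852) under OB WT + rhDKK1 and -0.87 ± 0.14 (SE, adjusted p = 0.0208) under OB WT + rhSOST. Under OB WT + rhSOST, QKI 214543_x_at, at -0.72 ± 0.13 (SE, adjusted p = 0.0275), and 212636_at, at -0.49 ± 0.09 (SE, adjusted p = 0.033), were called too. The other kept probe sets of QKI were not called. PTBP1, the pyrimidine tract repressor of exons, fell by 231158_x_at, a dim probe set, at -0.61 ± 0.11 (SE, adjusted p = 0.045) under OB SostKO and -0.48 ± 0.10 (SE, adjusted p = 0.045) under OB WT + rhSOST. The other kept probe sets of PTBP1, at log2 fold changes of -0.06, 0.19 and 0.27 under OB SostKO, were not called.

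A further 15 kept probe sets name a member beside another gene, and so lie outside the rule. They include the main probe sets of SRSF2, SRSF9, DDX5, HNRNPA1 and HNRNPH2. None was called in the 6 comparisons, and the lowest adjusted p among them was 0.11.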

How the data were processed

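PC3 RNA was read on Affymetrix U133 Plus 2.0 arrays, and the authors deposited 1 table of log2 values made with RMA (background correction, quantile normalization and probe set summary). The software and its version are not given in the sources used here, and no scanner files were used. Symbols came from the platform annotation. The table held 54675 probe sets. After removal of 62 controls, those at or above the 40th percentile of an array on at least 2 arrays were kept (33970, of which 28244 had 1 symbol, 1307 several and 4419 none). Group means were fitted over 9 arrays with limma 3.58.1 in R 4.3.3, with Benjamini-Hochberg adjustment over all kept probe sets of a comparison, and the code was tested on simulated data. Within a gene, each probe set was set against the one with the highest mean. Named were the listed genes by their brightest probe set, called probe sets, the 5 largest changes each way, the 8 genes of widest range, the 3 smallest p in direct comparisons, called within-gene differences and 4 genes of the other lists. Members, lists and tests were chosen with earlier results of these data known. Alternatives were other filters, cyclic loess, only the groups compared, a replicate block, array weights, each array left out, 1 probe set per gene, a fold of 2, Tukey's comparisons and the methods' t-test. The crossed block, the unadjusted limma p, the calls named without rhSOST array 3 and the count of groups without overlap were added after seeing the data. Promoter sequences came from RefSeq (GRCh38.p14).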

Additional observations from a re-analysis of the deposited data

How the results depend on the processing

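Of 20 called values of named probe sets, none changed direction. Of 299 values under alternatives, 162 stayed called and 137 lost the call, and 40 values that had not been called became called, 19 of them without rhSOST array 3. HNRNPA1 222040_at was called in 15 of 15 settings under OB SostKO and under OB WT + rhSOST and in 14 under OB WT + rhDKK1, where the fit of 2 groups alone lost it. Calls under OB WT + rhSOST held in 14 settings for SRSF5 203380_x_at, 12 for HNRNPLL, 8 for SRSF1 227164_at, 7 for HNRNPR, RBM3, SRSF7 and SRSF5 212266_s_at, 6 for HNRNPDL, 4 (of 14) for RBM15 228455_at, 3 for DDX17 and 2 for RBM15 219286_s_at. Lower members under OB SostKO numbered 2 with no filter, and higher members under OB WT + rhDKK1 numbered 2 with the filter at the 60th percentile. Cyclic loess gave 3 within-gene differences under OB WT + rhSOST. With only the 2 groups compared, which leaves fewer arrays, 1, 0 and 2 members were lower under OB SostKO, under OB WT + rhDKK1 and under OB WT + rhSOST, 0 were higher under OB WT + rhSOST, and 2, 0 and 0 within-gene differences were called. Array weights (0.5 for rhSOST array 3, 2.65 for array 2) gave 2 lower under OB SostKO, 3 higher under OB WT + rhDKK1, 13 higher and 7 lower under OB WT + rhSOST, and 2 and 15 within-gene differences under OB WT + rhDKK1 and OB WT + rhSOST. With 1 probe set per gene, 2 genes were lower under OB SostKO, 2 lower under OB WT + rhDKK1 and 3 higher under OB WT + rhSOST.

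Leaving out 1 array in turn gave 0 to 6 higher and 1 to 6 lower members under OB SostKO, 0 to 5 and 1 to 6 under OB WT + rhDKK1, 0 to 11 and 1 to 5 under OB WT + rhSOST, and 0 to 4, 0 to 4 and 0 to 11 within-gene differences. A group left with 1 array was assumed to vary like the others. The highest of these counts came without rhSOST array 3.

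The labels give no shared culture or day for same-numbered arrays, whose deviations from the group means correlated at 0.426 and 0.172 between arrays 1 and between arrays 2 of OB WT + rhDKK1 and OB WT + rhSOST, at 0.217 between OB SostKO and untreated PC3, at -0.365 between OB WT + rhDKK1 and untreated PC3, and at -0.539 between OB SostKO and OB WT + rhDKK1. With the replicate number as a block, in which rhSOST array 3 stands alone and drops out, 1, 1 and 2 members were higher under OB SostKO, under OB WT + rhDKK1 and under OB WT + rhSOST, 2 were lower under OB WT + rhSOST, and 4, 3 and 3 within-gene differences were called. With the numbers of OB WT + rhDKK1 crossed, over the groups of 2 arrays, an alternative added after seeing the data, 12 members were higher under OB SostKO and 8 under OB WT + rhDKK1. In either direction this called 10.7% and 8.28% of members, against 7.31% and 6.84% of all kept probe sets.

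An unadjusted limma p under 0.05 and a fold of 2 gave 2 higher and 1 lower under OB SostKO, 2 and 1 under OB WT + rhDKK1 and 1 and 1 under OB WT + rhSOST. With no fold, the same p gave 23 and 14, 24 and 14, and 30 and 12, with 9 members between OB SostKO and OB WT + rhSOST and 9 between OB WT + rhDKK1 and OB WT + rhSOST. Tukey's comparisons, unadjusted over probe sets, gave 9 higher and 7 lower under OB SostKO, 11 higher among 17 called under OB WT + rhDKK1, 15 higher and 11 lower under OB WT + rhSOST, and 4 and 1 in those direct comparisons. Against untreated PC3 cells these were 9.47%, 10.1% and 15.4% of members, beside 7.82%, 8.18% and 9.76% of all kept probe sets. In the direct comparisons they were 2.37% and 0.592%, beside 0.745% and 0.586%. The methods' paired comparison of arrays 1 and 2, unadjusted, gave 9 higher and 8 lower under OB SostKO, 6 and 7 under OB WT + rhDKK1, 13 higher under OB WT + rhSOST, and 5, 10 and 1 in the direct comparisons (OB SostKO against OB WT + rhSOST, OB WT + rhDKK1 against OB WT + rhSOST, OB SostKO against OB WT + rhDKK1). After Benjamini-Hochberg adjustment both gave 0 in every comparison with untreated PC3 cells. Not every direction is listed for each setting, so a direction left out need not be a count of 0. For the paired comparison, the fold of 2, the array weights and the replicate block, the share over all kept probe sets was not computed. The same holds for the other filters, cyclic loess and 1 probe set per gene, so these counts have no background beside them. Where counts moved, the cause was not tested beyond the arrays and probe sets each setting uses.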

Other observations

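Some members differed more between arrays of one group than between groups. HNRNPUL1 209675_s_at, which reads a relative of HNRNPU, was at 8.02 and 8.99 under OB SostKO, 9.17 and 8.05 under OB WT + rhDKK1 and 9.23, 8.45 and 8.78 under OB WT + rhSOST, against 8.62 and 8.998 in untreated PC3 cells. HNRNPL 202072_at, of a repressor that binds CA repeats, was at 10.06 and 10.44 under OB SostKO, 10.44 and 9.93 under OB WT + rhDKK1 and 10.46, 10.21 and 9.65 under OB WT + rhSOST, against 10.11 and 10.21 in untreated PC3 cells. DDX17 230180_at was at 7.53 and 7.68 under OB SostKO, 8.21 and 6.75 under OB WT + rhDKK1 and 7.77, 6.35 and 5.55 under OB WT + rhSOST, against 6.82 and 7.50 in untreated PC3 cells. In each of these probe sets the arrays of OB WT + rhDKK1 lay apart, array 1 above array 2. At least 1 unit lower on rhDKK1 array 2 than on array 1 were 3 of 169 members (1.78%), against 0.327% of all kept probe sets. The probe sets were picked for this spread, and no test was made of it.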
